A study of Xenopus tropicalis with 21 samples.

Results

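Transcripts of gluconeogenesis, glycolysis and glycogen genes were examined in the liver of mature female tropical clawed frogs, Xenopus tropicalis. Of 58 gene symbols set for these pathways, 53 matched rows of both deposited tables by name, and ppp1r3c matched a pair of rows, which gave 54 rows out of 20288. The symbols g6pc1, pfkl, eno3, gys2 and pygb matched no row of their own and are not analysed here under those names. The rows comprised 8 of gluconeogenesis, 25 of glycolysis and glucose uptake, 14 of glycogen, 5 hormonal and transcriptional regulators and 2 amylases. Enzymes that work in both directions of the glucose pathway were placed with glycolysis, apart from mdh1, which was placed with gluconeogenesis.

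The study followed descendants of F0 frogs that had been kept with or without benzo[a]pyrene (BaP), a polycyclic aromatic hydrocarbon formed in combustion, at 50 ng/L from tadpole to adulthood. The groups were 5 F2 BaP, 5 F2 control, 6 F1 BaP and 5 F1 control frogs, where BaP names the exposed lineage. The labels give a BaP treatment for the F0 frogs only. No allele, transgene or other agent is given in the labels for any group. The comparison within each generation asks which liver transcripts differ in descendants of exposed frogs. Each group has 1 FPKM value per gene (fragments mapped to a transcript, divided by its length in kilobases and scaled to all mapped fragments), pooled by the authors over its frogs, so no value of a single frog, no SD and no depth per library can be given.

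The liver both makes and uses glucose. Gluconeogenesis builds glucose from lactate and amino acids by steps that bypass the one-way reactions of glycolysis, glycolysis breaks glucose down to pyruvate, and glycogen stores glucose between meals. Glucagon and fasting raise the gluconeogenic genes through CREB, its coactivator CRTC2, PGC-1alpha (gene ppargc1a) and FOXO1, whereas insulin and carbohydrate favour glucokinase and liver pyruvate kinase.

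The tissue was checked first. Hepatocyte markers summed to between 19045 and 25063 FPKM per group over 22 rows, led by the retinol carrier rbp4 in every group. A further 2 hepatocyte and 2 erythrocyte markers were left out of the sums because the authors' test had marked their rows, in at least 1 of the tables, as holding too much data. The 22 hepatocyte rows summed to 21531 FPKM in F2 BaP frogs, against 23917 in F2 controls. In F1 they summed to 25063 FPKM in BaP frogs, against 19045 in controls. The median log2 fold change (BaP over control) of the tested markers was -0.27 in F2, with 7 of 21 above 0, and 0.27 in F1, with 17 of 21 above 0. None of them was called by the authors' Cuffdiff test, where 1.32% of all tested rows were in F2 and 1.67% in F1. In F2, 1 of them had an unadjusted p under 0.05. Of all tested rows of F2, 8.9% had such a p. In bulk tissue, fewer cells of a type and less RNA per cell cannot be told apart.

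**Figure D1:**
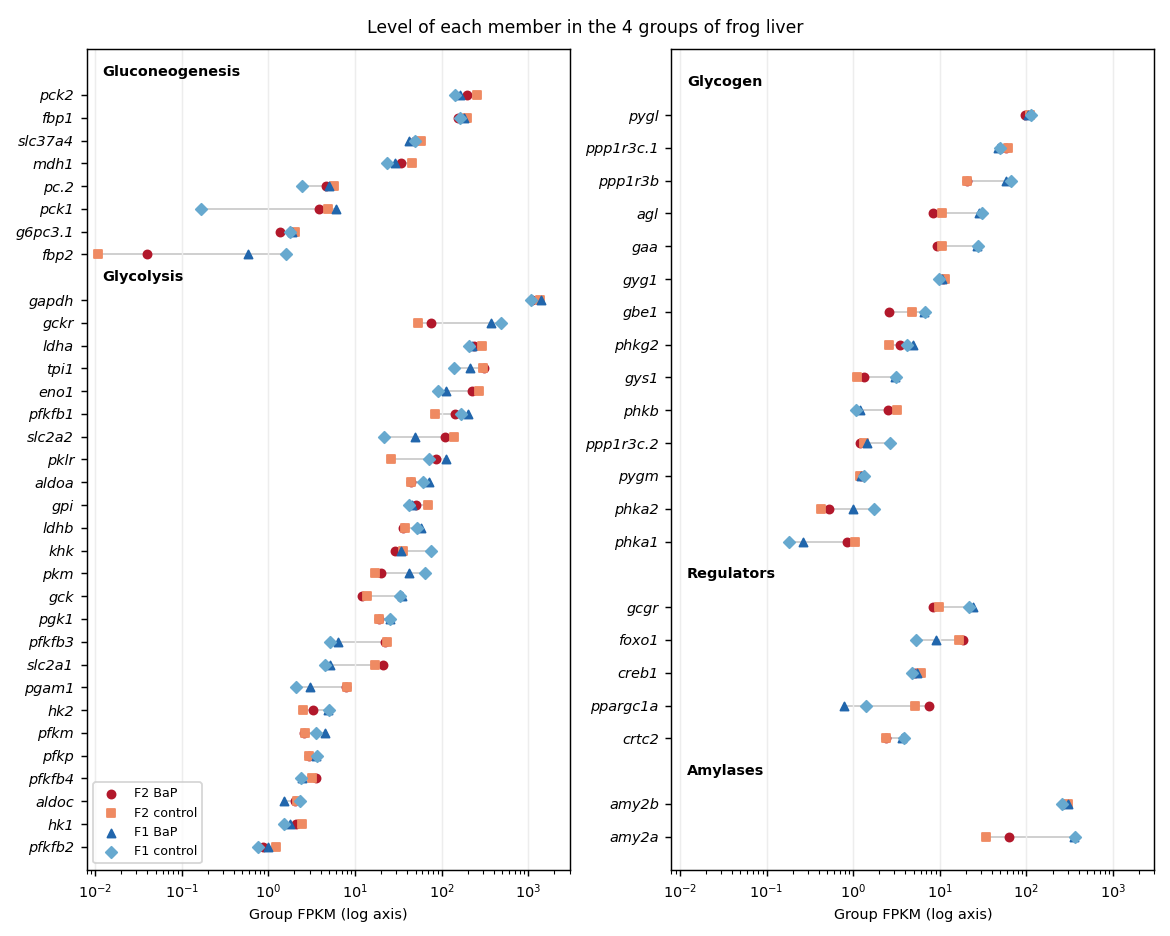
Group FPKM on a log axis for each of the 54 member rows, ordered by mean level within a pathway, with 1 pooled value for each of the 4 groups and a grey line over their range. The value of pck1 in F1 controls, 0.167 FPKM, lies far to the left of its other group values of 3.88 to 6.10 FPKM.

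Levels spanned several orders of magnitude. The glycolytic enzyme gene gapdh was the most abundant member in each group, at 1110 FPKM in F2 BaP frogs, 1360 in F2 controls, 1386 in F1 BaP frogs and 1076 in F1 controls. Members at 1 FPKM or more numbered 50 in F2 BaP frogs, 52 in F2 controls, 50 in F1 BaP frogs and 51 in F1 controls. Glycogen phosphorylase of liver, pygl, made up between 98.7% and 98.9% of the FPKM of pygl and the muscle form pygm. Liver fructose-1,6-bisphosphatase, fbp1, made up at least 99.0% of fbp1 plus fbp2 in every group.

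Among gluconeogenic genes, pck1 rose in F1 BaP frogs, the only call among the 53 members tested in that generation, and no member was called among the 53 tested in F2, where 3 had an unadjusted p under 0.05. A call means q under 0.05 in the authors' deposited table (q is p adjusted over all tested rows). Over all tested rows 0.612% were called higher and 1.05% lower in F1, and 0.793% higher and 0.531% lower in F2. The gene pck1 encodes cytosolic phosphoenolpyruvate carboxykinase, which commits oxaloacetate to glucose synthesis (chromosome 10, 5408168 to 5414677, assembly UCB_Xtro_10.0). It stood at 6.10 FPKM in F1 BaP frogs, against 0.167 FPKM in F1 controls. In F2 its level was 3.88 FPKM in BaP frogs, against 4.84 FPKM in controls. The F1 control value was the lowest of the 4 as listed, and the others lay within 3.88 to 6.10 FPKM. Levels of F1 and F2 were normalised separately, so this and later orderings across generations are descriptions without a test.

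The log2 fold change of pck1 in F1 was 5.19 in the authors' deposited table (p = 5e-05, q = 0.00654). An approximate 95% interval, from the standard error that this fold change and p imply, ran from 2.68 to 7.70. Because 5e-05 is the smallest p in the table, the true p may be smaller and the interval narrower. With the standard error taken from the deposited test statistic (3.88) instead, the interval would be wider. Of 12419 tested rows with a finite value, pck1 had the ninth highest fold change in F1. With 1 FPKM added to both groups the log2 fold change was 2.60.

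In F2 the log2 fold change of pck1 was -0.32 in the authors' deposited table (q = 0.952). Subtracting the F1 log2 fold change from the F2 one gave -5.51, with a standard error of 1.33 and q = 0.00812 (normal test with standard errors taken from the deposited p-values, Benjamini-Hochberg over 11678 rows). The lineage change of pck1 differed between the generations in that test, where 0.368% of all rows were lower and 0.591% higher in F2 at q under 0.05. The call was lost when the standard errors were taken from the deposited test statistic instead, where 1 row of the whole table passed. No parent or clutch is recorded here for any frog. Neither this test nor the deposited p-values can thus be said to measure spread between clutches.

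The mitochondrial form, pck2, carried most of the phosphoenolpyruvate carboxykinase transcript. It stood at 195 FPKM in F2 BaP frogs and 253 in F2 controls, and at 161 FPKM in F1 BaP frogs and 144 in F1 controls. The share of pck1 in the sum of both forms was 1.95% in F2 BaP frogs and 1.88% in F2 controls. In F1 it was 3.65% in BaP frogs, against 0.116% in controls. For pck2 the authors' deposited table gave log2 fold changes of -0.37 in F2 and 0.16 in F1, neither called (q = 0.916 and 0.9995).

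The remaining gluconeogenic genes were not called. Pyruvate carboxylase, pc.2, which makes the oxaloacetate that pck1 uses, stood at 4.60 FPKM in F2 BaP frogs and 5.75 in F2 controls. In F1 pc.2 had 4.95 FPKM in BaP frogs, against 2.44 in controls, which the authors' deposited table gives as a log2 fold change of 1.02 (p = 0.0260, q = 0.406). For pc.2, as for pck1, F1 controls were the lowest of the 4 groups. Its row spans the neighbouring genes ctsf and lrfn4, so its reads could be shared with them.

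The fructose-1,6-bisphosphatase gene fbp1 stood at 154 FPKM in F2 BaP frogs and 194 in F2 controls, and at 181 in F1 BaP frogs and 163 in F1 controls. Next to it on chromosome 1, 4.12 kb away, lies fbp2, which encodes the muscle form in mammals. The level of fbp2 was 0.577 FPKM in F1 BaP frogs, against 1.61 in F1 controls, which the authors' deposited table gives as a log2 fold change of -1.48 (p = 0.00925, q = 0.228). In F2 it was not tested, at 0.0395 FPKM in BaP frogs and 0.0107 in controls. Skeletal muscle markers were also lower in F1 BaP frogs: all 7 tested were below 0 and 4 were called lower. Among all tested rows of F1, 1.05% were called lower. The 19 muscle rows summed to 13.8 FPKM in F1 BaP frogs, against 30.4 in F1 controls. In F2, 5 of 6 tested muscle markers were below 0, 3 had an unadjusted p under 0.05 and 1 was called lower. Among all tested rows of F2, 0.531% were called lower and 4.49% were lower at that p. The muscle rows summed to 12.8 FPKM in F2 BaP frogs, against 19.8 in F2 controls. The muscle markers casq1, tnnc2 and tnni2 were listed at 0 in F1 BaP frogs, and casq1 in F1 controls, and the part of muscle RNA in fbp2 was not tested.

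Malate dehydrogenase of the cytosol, mdh1, stood at 33.8 FPKM in F2 BaP frogs and 45.0 in F2 controls, and at 29.1 in F1 BaP frogs and 23.1 in F1 controls. The glucose-6-phosphate transporter gene slc37a4, which feeds the last step of glucose release, had 49.8 FPKM in F2 BaP frogs and 58.1 in F2 controls. In F1 slc37a4 had 42.2 FPKM in BaP frogs and 48.6 in controls. The widely expressed phosphatase gene g6pc3.1 stayed between 1.37 and 2.01 FPKM in the 4 groups.

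Of the 8 gluconeogenic rows, the 7 tested in F2 all had log2 fold changes below 0, with a median log2 fold change of -0.33, against -0.03 over all tested rows. None was called there, where 1.32% of all tested rows were. In F1, 6 of the 8 tested values were above 0, with a median of 0.16, against 0.02 over all tested rows. The difference between generations was below 0 for all 7 rows tested in both, against 53.9% of all rows. Of these 7, 3 (pck1, pc.2 and mdh1) had an unadjusted p under 0.05, where 4.76% of all rows were lower at that p. Only pck1 kept a q under 0.05. The hepatocyte markers had medians of the same signs, -0.27 in F2 and 0.27 in F1, and their part in these medians was not tested.

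**Figure D2:**
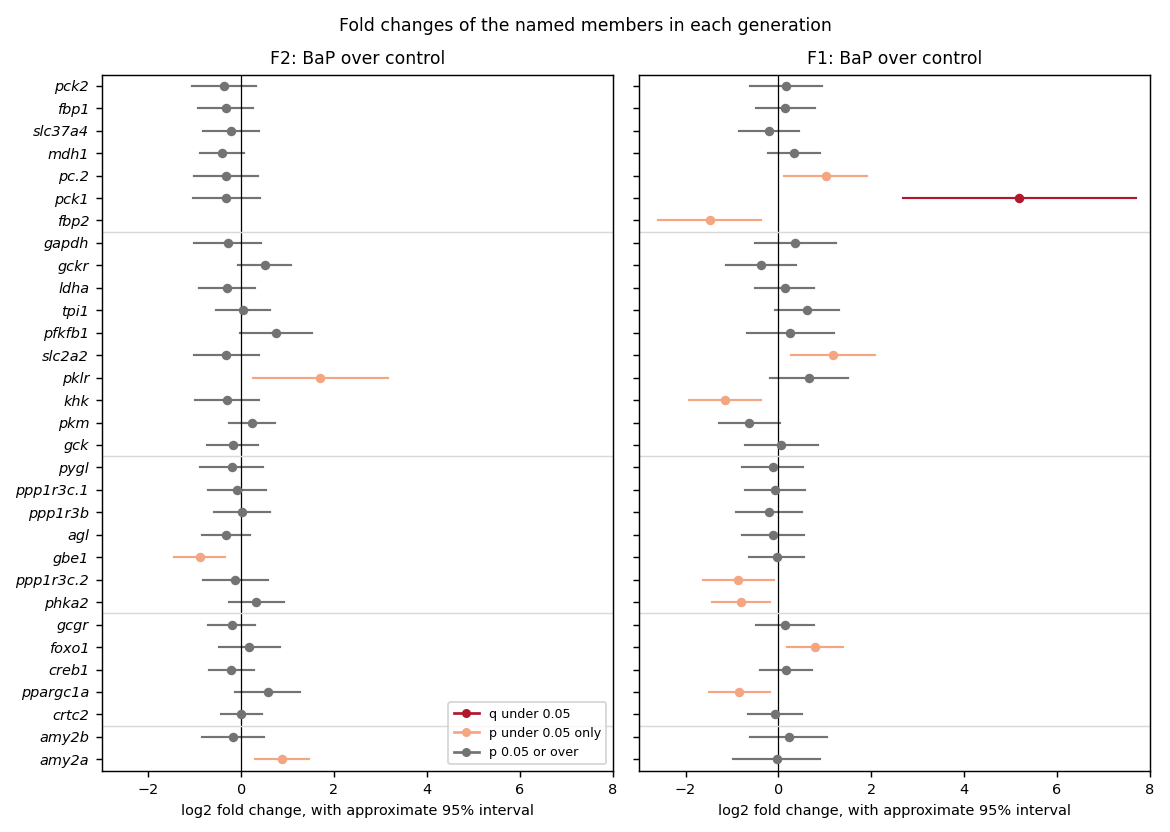
Log2 fold changes (BaP over control) of the 31 named members in F2 (left) and F1 (right), with approximate 95% intervals from the standard error implied by the authors' p. In F1, pck1 at 5.19 is the 1 member with q under 0.05, and in F2 there is none.

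The catalytic subunit of glucose-6-phosphatase frees glucose from glucose-6-phosphate. The listed symbol g6pc1 matched no row, but 3 rows named g6pc.1, g6pc.2 and g6pc.3 lie on chromosome 10, between 21380275 and 21463115. They were looked up after the values had been seen. The gene g6pc.1 stood at 476 FPKM in F2 BaP frogs and 905 in F2 controls, and at 1114 in F1 BaP frogs and 345 in F1 controls. For g6pc.2 the levels were 197 FPKM in F2 BaP frogs, 166 in F2 controls, 258 in F1 BaP frogs and 55.3 in F1 controls. The third copy, g6pc.3, had 465 FPKM in F2 BaP frogs, 527 in F2 controls, 793 in F1 BaP frogs and 243 in F1 controls. All 3 copies were lowest in F1 controls and highest in F1 BaP frogs.

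The authors' deposited table gave F1 log2 fold changes of 1.69 for g6pc.1, 2.22 for g6pc.2 and 1.71 for g6pc.3. None was called in F1: the unadjusted p was 0.210 for g6pc.1, 0.00125 for g6pc.2 and 0.247 for g6pc.3, with q = 0.935, 0.0631 and 0.972 in that order. In F2 the authors' deposited table gave -0.93 for g6pc.1 (p = 0.0109, q = 0.267), 0.25 for g6pc.2 (p = 0.440) and -0.18 for g6pc.3 (p = 0.645), also without a call. The 3 copies may share reads.

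Glucose uptake and the first phosphorylation came next. The main hepatocyte glucose transporter gene, slc2a2 (GLUT2), stood at 110 FPKM in F2 BaP frogs and 137 in F2 controls. In F1 slc2a2 had 49.6 FPKM in BaP frogs, against 21.8 in controls, which the authors' deposited table gives as a log2 fold change of 1.18 (p = 0.0105, q = 0.248). It was not called, and the approximate 95% interval ran from 0.28 to 2.09. The widely expressed transporter gene slc2a1 had 21.0 FPKM in F2 BaP frogs and 16.9 in F2 controls, and 5.13 in F1 BaP frogs and 4.45 in F1 controls.

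Glucokinase, gck, the low-affinity hexokinase of liver, stood at 12.0 FPKM in F2 BaP frogs and 13.6 in F2 controls, and at 34.8 in F1 BaP frogs and 33.3 in F1 controls. Its approximate 95% interval was -0.73 to 0.37 in F2 and -0.71 to 0.85 in F1 on the log2 scale. Islet cells also use gck. The insulin gene, ins, was at most 0.220 FPKM in any group, and the islet amyloid gene iapp had 0.594 FPKM in F2 BaP frogs, 0.461 in F2 controls, 1.66 in F1 BaP frogs and 1.27 in F1 controls. The 8 islet rows summed to 0.950 FPKM in F2 BaP frogs, 0.755 in F2 controls, 1.89 in F1 BaP frogs and 1.61 in F1 controls, and their part in the gck values was not tested. The glucokinase regulatory protein gene gckr, whose product holds glucokinase in the nucleus, had 75.0 FPKM in F2 BaP frogs and 52.8 in F2 controls, and 374 in F1 BaP frogs and 484 in F1 controls. Per length, gckr exceeded gck by 6.25 times in F2 BaP frogs and 3.87 times in F2 controls. In F1 it did so by 10.7 times in BaP frogs and 14.6 times in controls. Neither gene was called in either generation. The hexokinase genes hk1 and hk2 stayed between 1.53 and 5.03 FPKM.

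Ketohexokinase, khk, which channels fructose into the pathway, stood at 28.7 FPKM in F2 BaP frogs and 35.5 in F2 controls. In F1 khk had 34.0 FPKM in BaP frogs, against 75.7 in controls, which the authors' deposited table gives as a log2 fold change of -1.16 (p = 0.00355, q = 0.126). Here F1 controls were the high group. The khk row includes the neighbouring gene cgref1, whose annotation overlaps it by 698 bases.

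The liver bifunctional enzyme gene pfkfb1 makes and breaks down fructose-2,6-bisphosphate, the switch between glycolysis and gluconeogenesis. It stood at 142 FPKM in F2 BaP frogs and 83.8 in F2 controls, which the authors' deposited table gives as a log2 fold change of 0.76 (p = 0.0551, q = 0.580). In F1 its level was 199 FPKM in BaP frogs and 167 in controls. The pfkfb1 row takes in its neighbour nsmce3, whose annotation overlaps it by 254 bases. Its share of the pfkfb family was 84.2% in F2 BaP frogs, 75.0% in F2 controls, 95.3% in F1 BaP frogs and 95.2% in F1 controls. The stress-inducible form pfkfb3 made up most of the rest in F2, at 22.2 FPKM in BaP frogs and 23.4 in controls, and had 6.39 in F1 BaP frogs and 5.20 in F1 controls. The phosphofructokinase genes pfkm and pfkp lay between 2.57 and 4.53 FPKM in all groups. The symbol pfkl matched no row of its own, so the level of phosphofructokinase as a whole is not given. The genes pfkfb2 and pfkfb4 lay between 0.758 and 3.52 FPKM.

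Among the reversible enzymes no member was called, where 1.32% of all tested rows were in F2 and 1.67% in F1. Triosephosphate isomerase, tpi1, had 305 FPKM in F2 BaP frogs and 297 in F2 controls, and 211 in F1 BaP frogs and 138 in F1 controls (F1 log2 fold change 0.62, p = 0.0798 in the authors' deposited table). Enolase, eno1, had 224 FPKM in F2 BaP frogs and 272 in F2 controls, and 113 in F1 BaP frogs and 89.9 in F1 controls, from a row that takes in the neighbour ca6. The genes gpi, aldoa and pgk1 lay between 18.9 and 72.1 FPKM, and pgam1 and aldoc between 1.52 and 8.10 FPKM. Of the 8 rows, 3 were above 0 in F2 and 6 in F1, with medians of -0.06 and 0.29. Over all tested rows 45.8% were above 0 in F2 and 53.2% in F1, with medians of -0.03 and 0.02.

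Liver and red cell pyruvate kinase, pklr, catalyses the last step of glycolysis and is a target of carbohydrate signalling. It stood at 85.3 FPKM in F2 BaP frogs, against 26.1 in F2 controls, which the authors' deposited table gives as a log2 fold change of 1.71 (p = 0.0214, q = 0.373). In F1 it stood at 112 FPKM in BaP frogs, against 70.9 in controls, which the authors' deposited table gives as a log2 fold change of 0.66 (p = 0.124, q = 0.807). It was thus higher in BaP frogs in both generations without a call in either. The approximate 95% interval in F2, 0.25 to 3.16, is among the widest of the members.

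The other pyruvate kinase gene, pkm, had 19.9 FPKM in F2 BaP frogs and 17.0 in F2 controls, and 41.9 in F1 BaP frogs and 64.6 in F1 controls. The share of pklr in both was 81.1% in F2 BaP frogs, against 60.6% in F2 controls. In F1 that share was 72.7% in BaP frogs, against 52.3% in controls. The shares are descriptions of pooled values and carry no test. The pklr row also takes in its neighbour fdps, a gene of the mevalonate pathway, whose annotation overlaps it by 47 bases. The fdps row had 32.6 FPKM in F2 BaP frogs and 26.8 in F2 controls, the same direction as pklr, and 26.5 in F1 BaP frogs and 74.3 in F1 controls, the opposite direction.

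In mammals pklr is also expressed in red cells. Over 19 erythrocyte rows the sum was 10222 FPKM in F1 BaP frogs, against 6664 in F1 controls. All 18 tested values were above 0 in F1, where 53.2% of all tested rows were. Of these 18, 1 was called higher and 6 were higher at an unadjusted p under 0.05, against 0.612% and 4.35% of all rows. In F2 the sum was 8698 FPKM in BaP frogs, against 10523 in controls. Of 18 tested there, 4 were above 0 and none was called, where 45.8% and 1.32% of all tested rows were. Of those 19, hbe1 was listed at 0 in F2 BaP frogs. Outside the sums, hba1 was listed at 0 in all 4 groups and hbg1 in all but F1 controls, both marked by the authors' test as holding too much data. The part of red cell RNA in the pklr values was not tested.

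**Figure D3:**
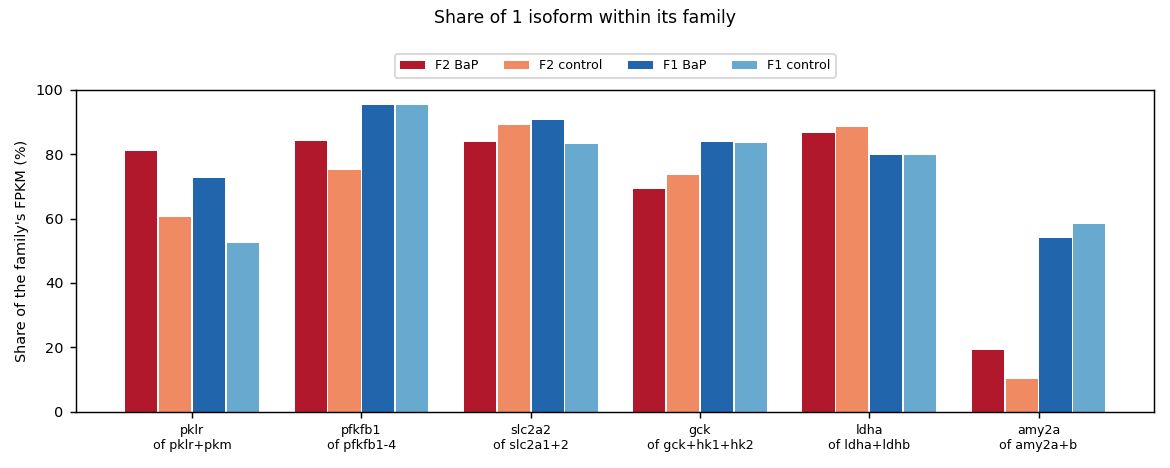
Share of 1 isoform in the summed FPKM of its family in each group, from 0 to 100%. The pklr share is 81.1% in F2 BaP frogs and 72.7% in F1 BaP frogs, above the 60.6% and 52.3% of their controls, and the amy2a share is at most 19.3% in F2 and at least 54.0% in F1.

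Lactate dehydrogenase genes were not called. The gene ldha had 236 FPKM in F2 BaP frogs and 291 in F2 controls, and 226 in F1 BaP frogs and 206 in F1 controls. Its partner ldhb stayed between 36.1 and 57.5 FPKM.

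Over the 25 glycolysis rows, 11 values were above 0 in F2 and 18 in F1, where 45.8% and 53.2% of all tested rows were. The medians were -0.05 in F2 and 0.20 in F1, against -0.03 and 0.02 over all tested rows. Tested rows with a mean of 10 FPKM or more had medians of -0.02 in F2 and 0.09 in F1. Of these, 47.3% were above 0 in F2 and 61.1% in F1. The hepatocyte markers had medians of -0.27 in F2 and 0.27 in F1, and their part in the glycolysis medians was not tested.

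No glycogen gene was called in either generation, where 1.32% of all tested rows were called in F2 and 1.67% in F1. The branching enzyme gene gbe1 had the lowest q of the members in F2. The gene gbe1, which adds the branch points of glycogen, stood at 2.61 FPKM in F2 BaP frogs, against 4.84 in F2 controls, which the authors' deposited table gives as a log2 fold change of -0.89 (p = 0.00155, q = 0.0866). In F1 gbe1 had 6.54 FPKM in BaP frogs and 6.72 in controls, with an approximate 95% interval of -0.63 to 0.55 on the log2 scale. The F2 minus F1 difference was -0.85, with a standard error of 0.41 and an unadjusted p of 0.0387, which did not pass (q = 0.500).

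Glycogen breakdown was covered by pygl, agl, gaa and pygm. Liver phosphorylase, pygl, had 96.1 FPKM in F2 BaP frogs and 111 in F2 controls, and 103 in F1 BaP frogs and 112 in F1 controls. The debranching enzyme gene agl had 8.42 FPKM in F2 BaP frogs and 10.5 in F2 controls, and 28.7 in F1 BaP frogs and 31.0 in F1 controls. The lysosomal glucosidase gene gaa had 9.19 FPKM in F2 BaP frogs and 10.5 in F2 controls, and 26.5 in F1 BaP frogs and 27.5 in F1 controls. In the authors' deposited tables the log2 fold changes of these 4 genes lay between -0.32 and 0.03 in F2 and between -0.12 and -0.05 in F1.

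Phosphorylase kinase switches phosphorylase on. Its liver alpha subunit gene, phka2, stood at 0.531 FPKM in F2 BaP frogs and 0.422 in F2 controls. In F1 phka2 had 1.003 FPKM in BaP frogs, against 1.76 in controls, which the authors' deposited table gives as a log2 fold change of -0.81 (p = 0.0106, q = 0.250). The F2 minus F1 difference for phka2 was 1.14, with q = 0.265. The muscle alpha subunit gene phka1 had 0.845 FPKM in F2 BaP frogs and 1.04 in F2 controls, above phka2 in both groups, and was not called. In F1 phka1 was not tested, at 0.265 FPKM in BaP frogs and 0.180 in controls, below phka2 in both groups. The subunit genes phkb and phkg2 lay between 1.07 and 4.93 FPKM and were not called.

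The phosphatase subunits that carry protein phosphatase 1 to glycogen include ppp1r3b and ppp1r3c. The liver subunit gene ppp1r3b had 20.7 FPKM in F2 BaP frogs and 20.5 in F2 controls, and 58.2 in F1 BaP frogs and 66.7 in F1 controls. The main ppp1r3c copy, ppp1r3c.1, stayed between 47.5 and 61.7 FPKM. The second copy, ppp1r3c.2, had 1.22 FPKM in F2 BaP frogs and 1.32 in F2 controls, and 1.46 in F1 BaP frogs and 2.66 in F1 controls. Its F1 log2 fold change was -0.86 in the authors' deposited table (p = 0.0278, q = 0.414). The glycogen primer gene gyg1 stayed between 9.69 and 11.4 FPKM. The synthase gene gys1 had 1.33 FPKM in F2 BaP frogs, 1.11 in F2 controls, 3.04 in F1 BaP frogs and 3.12 in F1 controls. The symbol gys2 matched no row of its own, so the level of glycogen synthase as a whole is not given.

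Over the 14 glycogen rows, 5 of 14 tested log2 fold changes were above 0 in F2, with a median of -0.11, and 3 of 13 in F1, with a median of -0.07. The medians over all tested rows were -0.03 in F2 and 0.02 in F1. At an unadjusted p under 0.05 there was 1 glycogen gene in F2 (gbe1) and 2 in F1 (phka2 and ppp1r3c.2), each lower in BaP frogs. These were 7.14% of the tested glycogen rows in F2 and 15.4% in F1, against 8.9% and 8.91% of all tested rows. Of all tested rows, 4.49% were lower at that p in F2 and 4.55% in F1.

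The regulators were measured at low to moderate levels. The forkhead factor gene foxo1, which insulin signalling shuts out of the nucleus, had 18.7 FPKM in F2 BaP frogs and 16.5 in F2 controls. In F1 it had 9.09 FPKM in BaP frogs, against 5.26 in controls, which the authors' deposited table gives as a log2 fold change of 0.79 (p = 0.0104, q = 0.247). The coactivator gene ppargc1a had 7.60 FPKM in F2 BaP frogs and 5.12 in F2 controls. In F1 it had 0.776 FPKM in BaP frogs, against 1.39 in controls, which the authors' deposited table gives as a log2 fold change of -0.85 (p = 0.0118, q = 0.264). In F1, foxo1 thus had a value above 0 and ppargc1a one below 0, and neither was called.

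The glucagon receptor gene gcgr had 8.43 FPKM in F2 BaP frogs and 9.71 in F2 controls, and 23.9 in F1 BaP frogs and 21.8 in F1 controls. The CREB coactivator gene crtc2 lay between 2.39 and 3.88 FPKM and creb1 between 4.81 and 6.06. For gcgr the approximate 95% interval was -0.71 to 0.30 in F2 and -0.49 to 0.76 in F1 on the log2 scale.

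**Figure D4:**
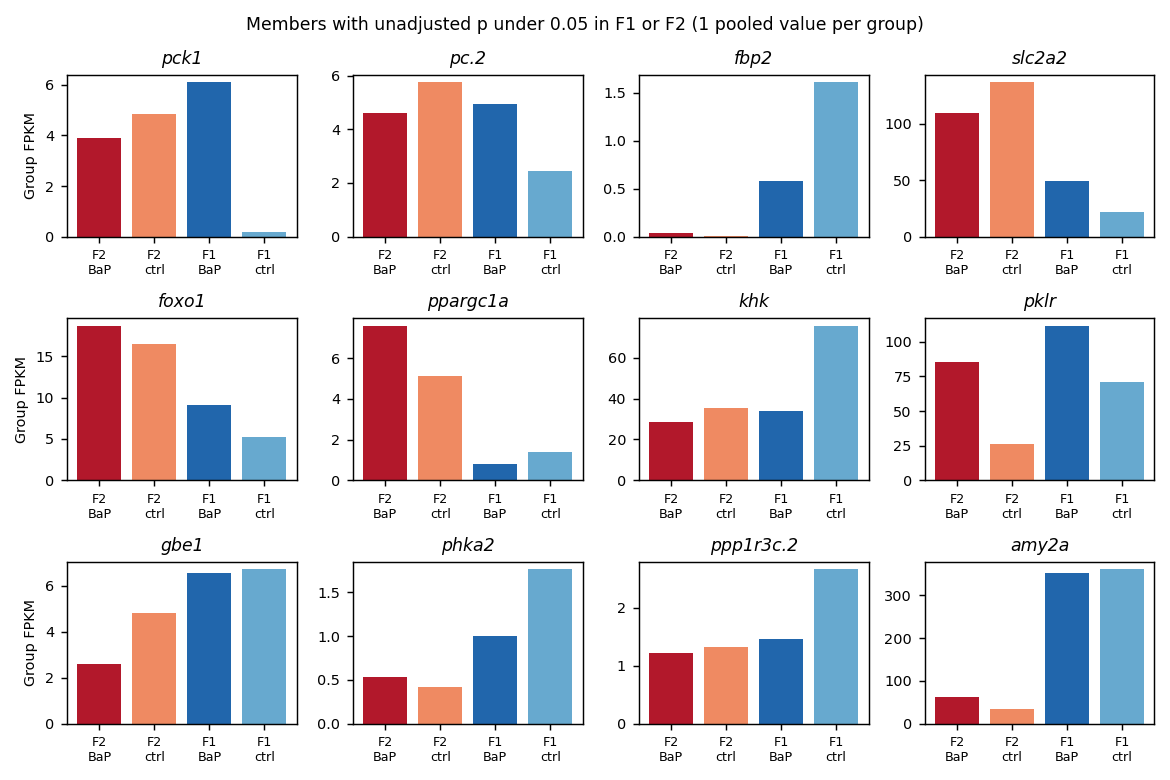
Group FPKM, on linear axes from 0, of the 12 members with an unadjusted p under 0.05 in F1 or F2. The F1 control bar is the lowest of the 4 for pck1 (0.167 FPKM), pc.2 (2.44), slc2a2 (21.8) and foxo1 (5.26), and the highest for khk (75.7), fbp2 (1.61), phka2 (1.76), ppp1r3c.2 (2.66), gbe1 (6.72) and amy2a (361). The F1 BaP bar lies close to it for gbe1 (6.54) and amy2a (351), and F1 and F2 were normalised separately.

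The amylases digest starch and are pancreatic and salivary enzymes in mammals. In these livers amy2b had 265 FPKM in F2 BaP frogs and 299 in F2 controls, and 299 in F1 BaP frogs and 256 in F1 controls. The neighbour amy2a, 2.16 kb away on chromosome 4, had 63.2 FPKM in F2 BaP frogs, against 34.3 in F2 controls, which the authors' deposited table gives as a log2 fold change of 0.88 (p = 0.00310, q = 0.137). In F1 amy2a had 351 FPKM in BaP frogs and 361 in controls. The 2 genes lie side by side and may share reads.

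Exocrine pancreas markers were higher in BaP frogs than in controls in both generations, at 20.6 against 4.25 FPKM summed over 14 rows in F2 and at 59.5 against 8.02 FPKM in F1. In F1, 9 of 10 tested were above 0 and 3 were called higher, where 0.612% of all tested rows were called higher. In F2, 5 of 6 were above 0, none was called and 3 were higher at an unadjusted p under 0.05. Of all tested rows of F2, 4.41% were higher at that p. The marker below 0 was cel in F1 and prss3 in F2. In F1 BaP frogs prss1 (20.4 FPKM) and cela3a (11.5) were not called, and ctrc (14.4) was. The lipase gene pnlip was listed at 0 in all groups, and ctrb1 in F2 BaP frogs, F2 controls and F1 controls. In F1 controls cpb1 and ctrb2 were also listed at 0, and they are 2 of the 3 markers called higher in F1. The amylases summed to 328 FPKM in F2 BaP frogs and 333 in F2 controls, and to 650 in F1 BaP frogs and 617 in F1 controls. Their sum exceeded that of the pancreas markers in each group, but the sums cover different genes. The part of pancreas RNA in the amylase values was not tested.

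**Figure D5:**
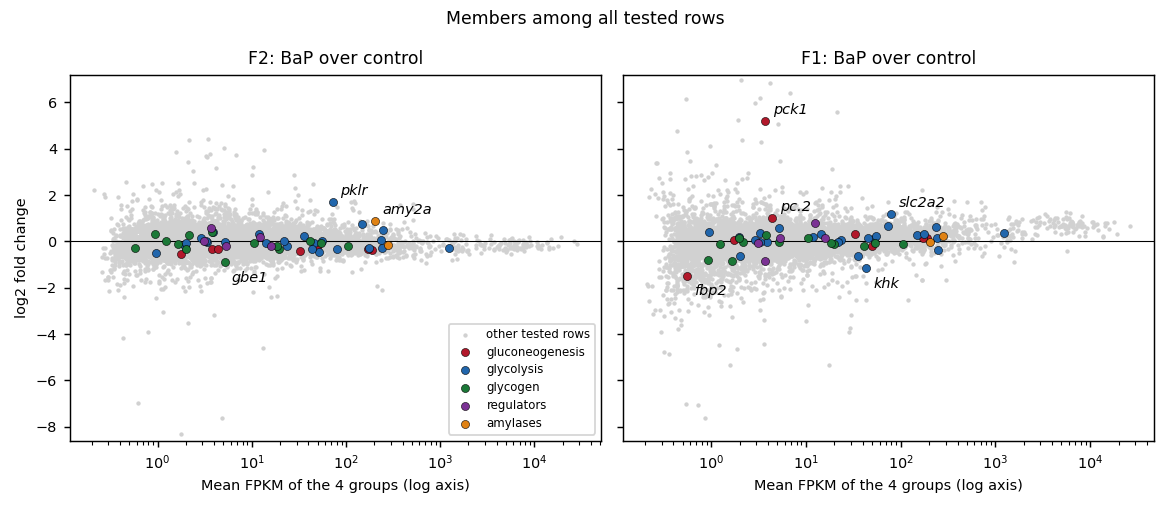
Log2 fold change (BaP over control) against the mean FPKM of the 4 groups on a log axis, for all tested rows (grey) and the member rows (coloured by pathway), in F2 (left) and F1 (right). Apart from pck1 at 5.19 in F1, the members lie between -1.48 and 1.71.

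The counts were read against the whole tables. In F1, 1 of 53 tested members was called, where 1.67% of all tested rows were. In F2, 0 of 53 tested members were called by the authors' Cuffdiff test, where 1.32% of all tested rows were. A single call among 53 rows is near the background, so the count says nothing particular of the members. At an unadjusted p under 0.05 there were 9 members in F1 (17.0%), against 8.91% of all rows. Of these 4 were higher and 5 lower, where 4.35% of all rows were higher and 4.55% lower. In F2 there were 3 (5.66%), against 8.9% of all rows. Of these 2 were higher and 1 lower, where 4.41% of all rows were higher and 4.49% lower. For the difference between generations, 1 of 52 members passed q under 0.05, against 0.959% of all rows, and 8 passed an unadjusted p under 0.05 (15.4%), against 9.03%. Of these 3 were higher and 5 lower in F2, where 4.27% of all rows were higher and 4.76% lower.

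The 12 members with an unadjusted p under 0.05 in one table or the other were pck1, pc.2, fbp2, slc2a2, khk, phka2, ppp1r3c.2, foxo1 and ppargc1a in F1, and pklr, gbe1 and amy2a in F2. At the members' median approximate standard error, 0.30 in F2 and 0.33 in F1 on the log2 scale, a change had to reach 1.02 in F2 and 1.12 in F1 to attain the largest p that was called. A member with that standard error and a change under 2-fold would not have been called. The median log2 fold change over all tested members was -0.09 in F2 and 0.13 in F1.

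Levels were also set side by side between the generations, although the tables were normalised separately and the generations were not compared by a test. Over the 11679 rows tested in both, the median ratio of F2 to F1 was 0.787 in BaP frogs and 0.794 in controls. Among the 52 members tested in both, pck1 was 28.9 times as high in F2 controls as in F1 controls, and slc2a2 6.28 times. The genes pfkfb3 (4.51 times), pgam1 (3.91), slc2a1 (3.79), ppargc1a (3.67), foxo1 (3.14) and eno1 (3.03) were also above 3 times. F2 controls had 0.0949 times the F1 control level of amy2a, 0.109 times that of gckr, 0.240 times that of phka2, 0.263 times that of pkm and 0.308 times that of ppp1r3b. Outside those 52, F2 controls had 0.00664 times the F1 control level of fbp2 and 5.80 times that of phka1. In BaP frogs, pck1 was 0.636 times as high in F2 as in F1, while ppargc1a was 9.79 times as high and gckr 0.200 times.

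Other genes of the pathways came from a list of 48 further symbols, of which 41 matched a row. Of these, 32 were tested in F2 and 31 in F1. None was called by Cuffdiff, where 1.32% of all tested rows were in F2 and 1.67% in F1. In F2, 1 was higher and 3 lower at an unadjusted p under 0.05, with 8 of 32 above 0 and a median log2 fold change of -0.28. In F1, 3 were higher and 1 lower, with 21 of 31 above 0 and a median of 0.15. At that p, 4.41% of all tested rows were higher and 4.49% lower in F2, and 4.35% and 4.55% in F1. Of all tested rows 45.8% were above 0 in F2 and 53.2% in F1, with medians of -0.03 and 0.02.

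Mitochondrial malate dehydrogenase, mdh2, had 112 FPKM in F2 BaP frogs and 135 in F2 controls, and 65.7 in F1 BaP frogs and 34.6 in F1 controls (F1 p = 0.00565 in the authors' deposited table). F1 controls were again the lowest group. The oxoglutarate carrier gene slc25a11 had 64.2 FPKM in F2 BaP frogs and 42.9 in F2 controls, and 54.9 in F1 BaP frogs and 36.6 in F1 controls, a log2 fold change of 0.58 in each of the authors' deposited tables. Of the tested rows of this list, 24 of 32 were below 0 in F2 and 10 of 31 in F1. Those lower at an unadjusted p under 0.05 were gpd1l in F1, and got1, gpd2 and akr1b1 in F2. Their log2 fold changes in the authors' deposited tables were -0.88, -0.69, -0.73 and -0.48 in that order. The gene gpd2 had 0.578 FPKM in F2 BaP frogs and 0.962 in F2 controls, and was not tested in F1.

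A list of regulators outside the members matched 29 rows, and it also holds the enzyme genes tat, gpt and sds. Of these 29, igfbp1 rose in both generations and was the only one called in either. Over all tested rows 0.793% were called higher in F2 and 0.612% in F1. Of the 25 tested in F2, 11 were above 0, with 3 higher and 2 lower at an unadjusted p under 0.05. Of the 23 tested in F1, 18 were above 0, with 3 higher (tat among them) and 0 lower at that p. Shares over all tested rows at that p were 4.41% higher and 4.49% lower in F2. In F1 those shares were 4.35% and 4.55%. The gene igfbp1 encodes the insulin-like growth factor binding protein that insulin represses. It had 43.9 FPKM in F2 BaP frogs and 15.4 in F2 controls (q = 0.00755 in the authors' deposited table), and 27.7 in F1 BaP frogs and 5.24 in F1 controls (q = 0.00654). The F2 minus F1 difference for igfbp1 was -0.89 (q = 0.819) and did not pass. The glucocorticoid-responsive factor gene klf15 had 4.65 FPKM in F2 BaP frogs and 8.31 in F2 controls, and 0.804 in F1 BaP frogs and 0.420 in F1 controls. Its values, -0.84 in F2 and 0.94 in F1 in the authors' deposited tables, were not called (q = 0.241 and 0.459).

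The tyrosine aminotransferase gene tat, another fasting-responsive enzyme, had 223 FPKM in F2 BaP frogs and 200 in F2 controls, and 369 in F1 BaP frogs and 151 in F1 controls (F1 q = 0.446 in the authors' deposited table). The carbohydrate-response factor gene mlxipl, which drives pklr in mammals, had 2.85 FPKM in F2 BaP frogs and 1.58 in F2 controls, which the authors' deposited table gives as a log2 fold change of 0.85 (p = 0.00810, q = 0.227). In F1 mlxipl had 3.96 FPKM in BaP frogs and 3.80 in controls. Also under an unadjusted p of 0.05 in F2, without a call, were klf9 and prkar1a. Their log2 fold changes in the authors' deposited table were 0.70 (p = 0.024) and -0.50 (p = 0.045).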

How the data were processed

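Stranded poly(A) libraries from 15 mg of liver per frog were read as 75 bp on an Illumina GAIIx, per the labels' protocols. The submitters' processing notes name HISAT2, Cuffdiff 0.0.7, Cufflinks 0.0.7 and Trimmomatic 0.32.1, but the sources used here give neither build nor counting settings. The authors deposited 1 Cuffdiff table per generation with group FPKM, log2 fold change (BaP over control), a test score, p-value and q-value, per the file headers. No replicate values, depths or SDs are in these tables. Positions were taken as the tables' loci, counted from 1. Both ends matched the RefSeq gene table of UCB_Xtro_10.0 for 48 of 54 rows, and for the other 6 the locus is a merged or different span.

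Calls needed status OK and the deposited q under 0.05. Standard errors were taken as the log2 fold change divided by the normal quantile of p, with scipy 1.17.1, and the F2 minus F1 test used them over all rows. Lists are described by counts and medians beside all rows. Members, lists and named-gene rule were chosen with earlier results of these data known. Named were members with q or p under 0.05 in either table or the difference, those past 2-fold, the 4 most abundant per pathway, liver-type enzymes, regulators and amylases. Genes described beside these by range or level are for completeness. Where replicate values are lacking, alternatives were thresholds, adjustments, pseudocounts, filters, centring and standard errors. Looking up the 3 g6pc rows was added after the data were seen. Promoter and protein sequences, intended for pck1, were not used here. A gene of the further pathway list is not reported here by name.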

Additional observations from a re-analysis of the deposited data

Results flagged for a closer look

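For pck1 the F2 log2 fold change less the F1 one was -5.51 (standard error 1.33, q = 0.00812), and this test of the difference itself is what singled it out. In F2 pck1 had 3.88 FPKM in BaP frogs and 4.84 in controls, and in F1 6.10 in BaP frogs and 0.167 in controls. Values of single frogs were not analysed here, so how many frogs carry the low F1 control level was not tested.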

How the results depend on the processing

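No paired analysis was possible because the tables hold 1 pooled value per group, and leaving out single frogs could not be run for the same reason. The F1 count of 1 called member was the same at q under 0.01 or 0.1, with p adjusted again, with rows reaching 1 FPKM, with a 1.5-fold minimum and with the g6pc rows. In F2 it was 0 except at q under 0.1, where it was 1 (gbe1). The F2 minus F1 count of 1 became 0 with standard errors from the test statistic, and was the same under its other alternatives. Pathway medians moved by at most 0.1 on the log2 scale under each pseudocount, filter and centring tried. With the g6pc rows, an alternative chosen after seeing the data, the F1 gluconeogenesis median was 0.33 instead of 0.16. None of the 61 fold changes of named members changed sign with a pseudocount of 1 or with the median of all tested rows subtracted, settings that carry no q. None changed its call with p adjusted again. Depth is unknown, and the pck1 fold rests on a control level under 1 FPKM.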
